A study of Homo sapiens with 4 samples.

Results

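Untreated PC3 cells were compared with untreated LNCaP cells on 1-colour Agilent gene expression arrays, using 2 of the 4 arrays of the series, 1 for each cell line. The members of the comparison were the genes whose probe lay well above background, by the scanner software's own call, on at least 1 of the 2 arrays: 15272 of the 27258 gene names on the array. The series also exposed both lines to atorvastatin (ATO), a statin, and those arrays were not used here. The untreated control of each line is the state from which the response to ATO was measured, and the comparison asks how far apart the lines lay before any drug was added.

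Both groups were established cell lines bought from the American Type Culture Collection and grown in RPMI medium with 10% fetal bovine serum, seeded to reach about 30% confluence. The labels call each control array "no treatment" and name no vehicle, so whether the solvent of the drug was added to these dishes is not given. The labels name no introduced allele or construct in either line. LNCaP came from a lymph node metastasis and PC3 from a bone metastasis of prostate cancer. With 1 array a line there was no replicate, so no difference below has a replicate check and no p-value was computed. Each line is also 1 established culture, so a difference between them is a difference between these 2 cultures and not between androgen-dependent and androgen-independent tumours at large.

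As background, the secretory luminal cells of the prostate respond to androgen, the male sex hormone, and secrete kallikrein proteases such as KLK3, known in the clinic as prostate-specific antigen. LNCaP keeps this program and needs androgen to grow, while PC3 grows without it and is known for its invasive growth. Basal cells, which lie under the luminal layer, carry other keratins, integrins and laminins, and mesenchymal cells carry vimentin and N-cadherin in place of E-cadherin.

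Both arrays lay on the same slide at different positions, so position and cell line cannot be told apart. In LNCaP 52.9% and in PC3 52.7% of the gene spots were called well above background, and no spot was saturated. Repeated spots of a probe had a median SD, on the log2 scale, of 0.09 in LNCaP and 0.10 in PC3, which covers the error of the spot and not that of the culture, the RNA or the labelling. The lowest signal called well above background was 27.4 intensity units in LNCaP and 52.1 in PC3, a 1.62-fold difference after scaling. A gene seen in 1 line only was therefore set against a lower floor when that line was PC3, and its bound can be larger for that reason.

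Signals below are processed intensities of the gene's brightest probe, in units, as the scanner software gave them. A fold compares the signals after each was divided by the 75th percentile of its own array, 654 units in LNCaP and 771 in PC3. Where the probe was not well above background in 1 line, its signal there is given as read, and the fold is a bound, written as "at least". A log2 difference is PC3 minus LNCaP, so a value below 0 means a higher signal in LNCaP. Intensities of different genes come from different probes and are not set against each other.

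The 2 lines differed widely. Of the 15272 genes, 6054 (39.6%) were at least 2-fold apart, 3155 (20.7%) higher in PC3 and 2899 (19%) higher in LNCaP. These shares are the background against which every gene group below is read. The median log2 difference over all counted genes was −0.04, with quartiles of −0.76 and 0.76. At 4-fold the counts were 1579 in PC3 and 869 in LNCaP, at 10-fold 709 and 262, and at 100-fold 106 and 22. Bounds made up part of this: of the 1675 genes well above background in PC3 only, 1566 had a bound of at least 2-fold, against 725 of the 1789 genes seen in LNCaP only. Among the 11808 genes well above background in both lines the balance at 2-fold was the other way, with 1589 at least 2-fold higher in PC3 and 2174 in LNCaP, but from 4-fold on PC3 led there too, with 589 against 483 genes at 4-fold, 194 against 97 at 10-fold and 13 against 2 at 100-fold. The balance also moved with the scaling, to 2197 and 4966 when the 50th percentile was used and to 4639 and 1515 with the spike-in probes, which moved the median of all genes by −0.49 and 0.42. Directions given below for a gene group are therefore read relative to that median.

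**Figure D1:**
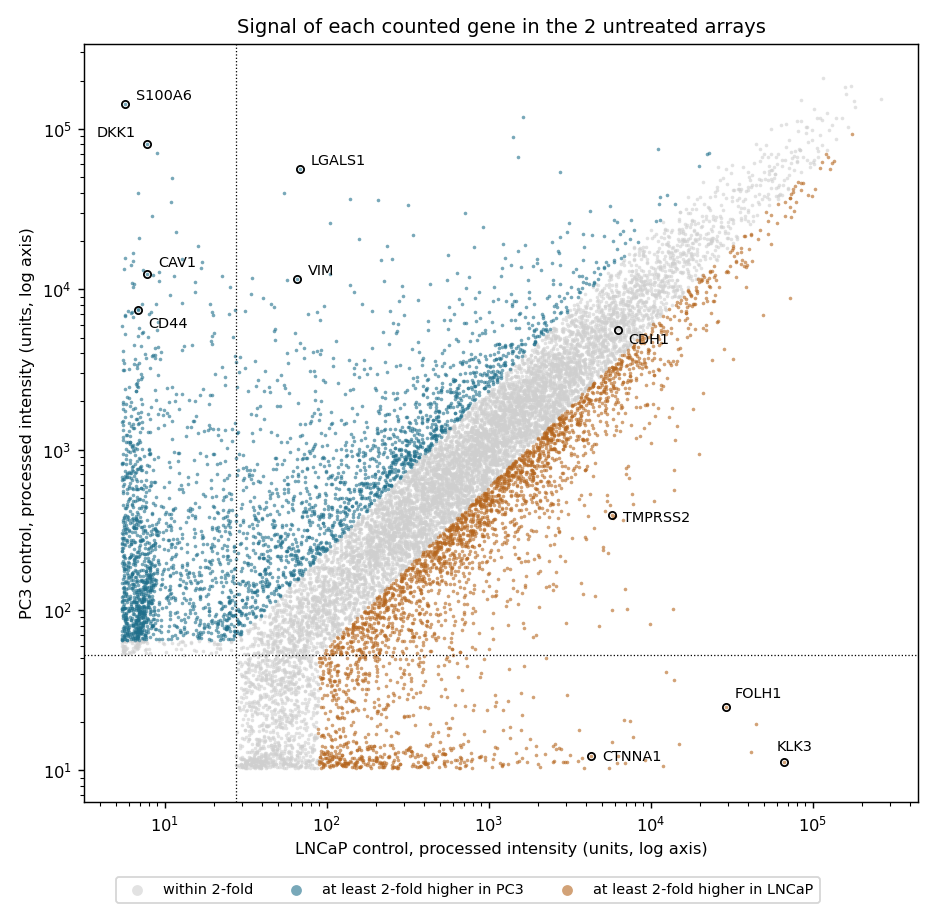
Processed intensity of each counted gene in LNCaP control (horizontal, log axis) and PC3 control (vertical, log axis), with genes at least 2-fold apart after scaling in colour and dotted lines at the lowest signal well above background on each array (27.4 units in LNCaP, 52.1 in PC3). Most genes lie along the diagonal, and separate columns of genes at the left and bottom edges, which hold S100A6 and KLK3, were near background in 1 line.

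Transcription factors of luminal cells were for the most part higher in LNCaP. HOXB13, a homeobox factor of the prostate, gave 9329 units in LNCaP and 2521 in PC3, and so remained far above background in PC3 at a difference of 4.36-fold. The pioneer factor FOXA1, which opens chromatin for other factors, differed by only 2.08-fold (6839 and 3885 units). The epithelial factors SPDEF (−0.88) and GRHL2 (−0.70) stayed within 2-fold (log2 differences), and ELF3 was 2.69-fold higher in PC3. Of the 10 genes of this list, all counted, 6 were at least 2-fold higher in LNCaP and 1 in PC3, and their median log2 difference was −1.59.

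KLK3 and KLK2, neighbouring genes on chromosome 19 that encode secreted proteases, were the kallikreins with the largest bounds. KLK3 gave 65987 units in LNCaP and 11.2 in PC3, where the probe was at background. The KLK2 probe gave 9228 units in LNCaP and 11.6 in PC3, at least 209-fold apart, while its second probe differed by at least 1.98 on the log2 scale only, so the size of this difference depends on the probe. The 250 bases before the start of each gene are shown because both genes moved together and their promoters are alike. The sequences are from RefSeq on the GRCh38.p14 build, plus strand, 5′ to 3′, at chr19:50854665-50854914 for KLK3 and chr19:50873189-50873438 for KLK2. Capitals mark 14 letters that both hold, GAACAGCAAGTGCT, known as part of an androgen response element of KLK3.
KLK3: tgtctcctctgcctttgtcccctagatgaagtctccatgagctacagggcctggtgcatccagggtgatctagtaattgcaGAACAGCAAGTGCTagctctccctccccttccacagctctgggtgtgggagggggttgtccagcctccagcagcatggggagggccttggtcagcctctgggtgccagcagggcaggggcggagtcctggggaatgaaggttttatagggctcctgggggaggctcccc
KLK2: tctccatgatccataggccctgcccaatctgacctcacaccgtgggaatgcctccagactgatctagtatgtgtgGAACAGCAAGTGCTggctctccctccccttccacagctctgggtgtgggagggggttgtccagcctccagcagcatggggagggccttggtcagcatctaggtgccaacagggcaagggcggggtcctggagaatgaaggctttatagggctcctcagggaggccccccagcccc
On either strand, the 14 letters were found in 2 of the 35116 promoters of the RefSeq table, these 2. These letters end 1 base before the longest run that the promoters share, of 80 bases. The 6 letters AGAACA, or TGTTCT on the other strand, which overlap the 14 letters in KLK3, were found in 12.4% of all promoters. A match is a description of the letters and does not show that any factor was bound there in these cells.

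Further genes of the androgen response followed the same direction with few exceptions. FOLH1, the prostate-specific membrane antigen, gave 28960.1 units in LNCaP and 25 in PC3 (at least 655-fold), although its near copy FOLH1B shares sequence with it and the probes cannot fully separate the pair. TMPRSS2, a membrane protease and the usual fusion partner of ETS genes in prostate cancer, was at 5793 and 392 units, above background in both lines. SLC45A3, a transporter of the prostate epithelium also called prostein, gave 14516 units in LNCaP and 1395 in PC3, 12.3-fold higher in LNCaP. The metalloreductases STEAP2 and STEAP1 differed by 20-fold and 10.8-fold, and FKBP5, a chaperone of steroid receptors that androgen induces, by 9.62-fold. Among 31 counted genes of the list, 25 were at least 2-fold higher in LNCaP and 4 in PC3 (median −2.49), against 19% and 20.7% of all counted genes. The 4 exceptions were CAMKK2, a kinase (2.55-fold), HPGD, which inactivates prostaglandins (2.36-fold), NDRG1 (2.19-fold) and ELL2 (2.08-fold), the last a transcription elongation factor. PMEPA1, an inhibitor of TGF beta signals, was level at −0.01 on the log2 scale. STEAP4, PCA3 and HERC3 were not well above background in either line.

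**Figure D2:**
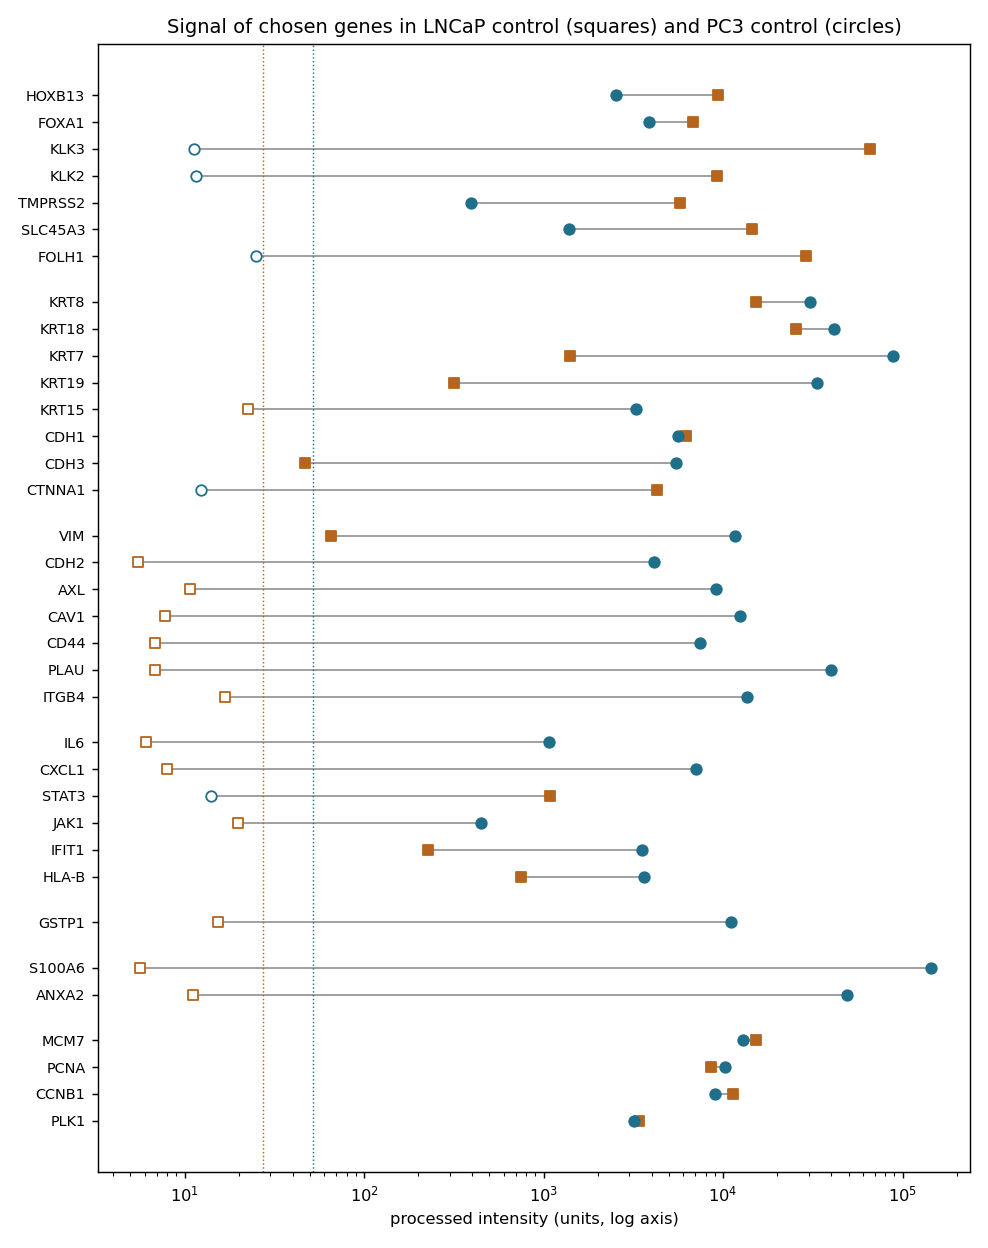
Processed intensity (log axis) of chosen genes in LNCaP control (squares) and PC3 control (circles), with open symbols where the probe was not well above background and dotted lines at the lowest signal well above background on each array. KLK3 spans 65987 to 11.2 units and S100A6 5.67 to 143676 in the other direction, while the proliferation genes at the bottom and CDH1 lie close together.

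Steroid-metabolising enzymes were split between the lines. The conjugating enzymes UGT2B15 (at least 44.4-fold), UGT2B10 (at least 14.1-fold) and UGT2B11 (at least 10-fold) were all higher in LNCaP and at background in PC3, but these near copies can share signal. HSD17B4, a peroxisomal dehydrogenase, was at 9479 units in LNCaP and 1893 in PC3, 5.91-fold higher in LNCaP. In the other direction, AKR1C3, which makes testosterone from androstenedione, gave 28.4 units in LNCaP and 742 in PC3 (at least 22.2-fold), with the same limit for its near copies. SULT1E1, which sulfonates oestrogens, was at least 5.22-fold higher in PC3. Of 16 counted genes, 7 were at least 2-fold higher in LNCaP and 6 in PC3, a median of −0.85.

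Both lines gave strong signals for the simple keratins of glandular epithelium, and the lines separated on others. KRT8 was at 15203 units in LNCaP and 30539.7 in PC3, and its partner KRT18 at 25459 and 41763, both within 2-fold after scaling. KRT19, a keratin of simple and some basal epithelium, gave 317 units in LNCaP and 33579.7 in PC3, 89.8-fold higher in PC3. KRT7 moved likewise, from 1413 to 88581 units (53.2-fold). All 9 counted genes of the basal list were at least 2-fold higher in PC3, with a median of 4.16, but 8 of them had entered the count through PC3 alone, so their common direction was set by the filter. SNAI2, a repressor, was the only member read in both lines (5.36-fold higher in PC3). The others included the keratins KRT15 (at least 101-fold), KRT6A (at least 34.5-fold), KRT17 (at least 17.9-fold), KRT14 (at least 15.7-fold), KRT16 and KRT6B, and the laminin chain LAMB3 (at least 416-fold). The defining basal genes KRT5, TP63, DSG3, COL17A1 and NGFR were not well above background in either line, so PC3 showed a part of the basal set and not its usual markers. KRT6A and KRT6B are near copies, and their probes may read each other.

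Most epithelial genes were read in both lines. Of the 32 genes of the list, 32 were well above background in LNCaP and 31 in PC3. The exception was the junction gene CTNNA1, at 4264 units in LNCaP and 12.3 in PC3 (at least 96.5-fold). CDH1, which encodes E-cadherin, was at 6236 units in LNCaP and 5588 in PC3, 1.32-fold apart and with copy SDs of 0.08 and 0.10 on the log2 scale. EPCAM, an epithelial adhesion protein, was 2.31-fold higher in PC3, and the tight junction protein CLDN7 2.31-fold higher in LNCaP. RAB25, a GTPase of epithelial recycling endosomes, gave 6036 and 386 units, 18.4-fold higher in LNCaP. CDH3, or P-cadherin, stood out in the other direction with 46.9 units in LNCaP and 5488 in PC3 (99.3-fold). Of 32 counted genes, 5 were at least 2-fold higher in PC3 and 8 in LNCaP, and the median of 0.07 turned to −0.42 when the 50th percentile was used for scaling.

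Mesenchymal genes were for the most part higher in PC3, beside the epithelial genes that both lines showed. VIM, the intermediate filament of mesenchymal cells, was at 65.3 units in LNCaP and 11669.8 in PC3. N-cadherin, CDH2, gave 5.49 and 4125 units (at least 128-fold), and cadherin-11, CDH11, 6.69 and 3214 (at least 99.7-fold). The receptor kinase AXL was at 10.7 units in LNCaP and 9187 in PC3, at least 285-fold apart. Collagens followed in part: COL6A1 was above background in both lines and 3.58-fold higher in PC3, COL4A2 28.7-fold, and COL1A1 differed by 0.31 on the log2 scale. Of the repressors that drive the mesenchymal state, SNAI2 was read in both lines and 5.36-fold higher in PC3. ZEB1 was at least 2.86-fold higher in PC3 at 92.4 units, and TWIST2 at least 3.17-fold at 102 units. SNAI1 was level (−0.35), and TWIST1 was 3.25-fold higher in LNCaP, the 1 member of the list past 2-fold in that direction. Of 25 counted genes, 21 were at least 2-fold higher in PC3, with a median log2 difference of 3.997. FN1, ZEB2, SPARC, COL1A2, COL3A1, LOX, PRRX1, THY1, DCN and LUM were not well above background in either line.

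CD44, a receptor for hyaluronan, was at 6.81 units in LNCaP and 7404 in PC3. The coat proteins of caveolae, CAV1 (7.78 and 12387 units) and CAV2 (7.58 and 3952 units), were above background in PC3 only, and both CAV1 probes gave bounds over 7.5 on the log2 scale. Caveolae also need CAVIN1, whose genome neighbours STAT3 and ATP6V0A1 were at background in PC3. Whether the CAVIN1 probe read that transcript alone was not tested. The probe was well above background in both lines and 1.55-fold higher in LNCaP, within 2-fold. Caveolae genes thus did not move as a set: 2 of 6 counted were higher in PC3 and 1 in LNCaP, with a median of 0.26 that turned to −0.10 under the 50th percentile and to −0.63 when only genes seen in both lines were kept.

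Integrins, the receptors for matrix and laminin, were for the most part higher in PC3. ITGB4, the partner of ITGA6 in the laminin receptor of hemidesmosomes, gave 16.8 units in LNCaP and 13552 in PC3, at least 420.2-fold. ITGA6 itself was at 466 and 3575 units (6.51-fold), and ITGA3, another laminin-binding chain, at 45.2 and 8062 (151-fold). The shared chain ITGB1 was 3.91-fold higher in PC3. ITGAV, which pairs with several chains, was level at 0.16 on the log2 scale, and ITGAE was 2.58-fold higher in LNCaP. Of 16 counted chains, 12 were at least 2-fold higher in PC3 and 1 in LNCaP, with a median of 1.67.

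Proteases of the plasminogen system and of the matrix were among the largest differences. PLAU, the urokinase plasminogen activator, was at 6.82 units in LNCaP and 39688 in PC3, at least 1229.8-fold apart, and its second probe gave a bound of 8.53 on the log2 scale. PLAT, the tissue activator, differed by at least 192-fold, and the urokinase receptor PLAUR gave 36.1 and 3557 units (83.5-fold). The membrane-bound metalloprotease MMP14 (at least 41-fold) and collagenase MMP1 (at least 29-fold) were seen in PC3 only. Several inhibitors and related serpins were also higher in PC3: TIMP1 was at least 333-fold higher in PC3, TIMP2 12.1-fold, and SERPINB5, or maspin, 57.3-fold. In LNCaP, TFPI, an inhibitor of coagulation, was 11.2-fold higher, while its relative TFPI2 was at least 184-fold higher in PC3. ADAMTS1, MMP15 and MMP11 completed the 4 genes at least 2-fold higher in LNCaP, against 16 in PC3 of 21 counted (median 3.46).

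Of the inflammatory cytokines that were read, most were seen in PC3 only. LIF (15.9-fold) and CXCL5 (58-fold) were read in both lines and higher in PC3, and CXCL16 was 1.51-fold higher in LNCaP. In this list IL1A, TNF, CCL2, CCL20, CSF1, CSF3 and TRAF1 were not well above background in either line. The neutrophil chemokine CXCL1 gave 8.02 units in LNCaP and 7041 in PC3, at least 218-fold. IL6, a cytokine that signals through STAT3, was at 6.12 and 1077 units (at least 33.4-fold). IL1B (at least 80.9-fold), IL18 (at least 121-fold), CXCL2 (at least 79.3-fold) and IL32 (at least 59.4-fold) were likewise at background in LNCaP. CXCL8, the best known of these chemokines, reached 70.4 units in PC3, only just over the limit for a signal well above background, and differed by at least 2.18-fold. Subunits of NF-kB, the factor that induces many of these genes, differed less: RELA by 0.45, NFKB1 by −0.35 and NFKB2 by 0.09 on the log2 scale, with RELB 13.7-fold higher in PC3. The receptors IL1R1 (6.2-fold) and IL6R (2.38-fold) were the 2 members at least 2-fold higher in LNCaP, against 19 of 27 in PC3. The list's median of 2.90 fell to 0.23 when only genes seen in both lines were kept, and 14 of its members had bounds.

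Interferon-stimulated genes were higher in PC3 with no member past 2-fold in LNCaP. IFIT1, an antiviral RNA-binding protein, gave 227 units in LNCaP and 3536 in PC3, 13.2-fold apart. IFITM1, which blocks viral entry, was at 82.2 and 4053 units (41.8-fold), and the GTPase MX1 at 148 and 2956 (16.9-fold). ISG15, a ubiquitin-like modifier, was bright in both lines and differed by 0.98 on the log2 scale, just within 2-fold. Of 28 counted genes 23 were at least 2-fold higher in PC3, with a median of 2.15 that lay between 1.51 and 2.65 over the scalings tried. Transcripts of class I antigen presentation showed a smaller shift in the same direction, 11 of 19 in PC3 and 1 in LNCaP (median 1.25). HLA-B was at 753 and 3617 units, 4.07-fold higher in PC3, and its light chain B2M was within 2-fold (0.77); the immunoproteasome subunit PSMB8 was 10.7-fold higher in PC3 and PSMB10 2.48-fold higher in LNCaP. HLA heavy chain genes are near copies of each other, and their probes can share signal.

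Within the pathway that carries interferon and cytokine signals, several genes were read in 1 line only. JAK1, the kinase shared by the interferon receptors, gave 19.7 units in LNCaP, not above background, and 448 in PC3 (at least 13.9-fold, 1 probe). STAT6, which relays interleukin-4, was at 10.6 and 1614 units (at least 50-fold). STAT3 and STAT5B went the other way: STAT3 gave 1089 units in LNCaP and 14 in PC3, at least 24.7-fold, and STAT5B 256 and 10.4, at least 5.8-fold. IRF9, which acts directly on interferon-stimulated genes, was 4.93-fold higher in PC3. The feedback inhibitors SOCS1 and SOCS3 were 13.3-fold and at least 21.2-fold higher there. Of 16 counted genes, 8 were higher in PC3 and 3 in LNCaP, with a median difference of 2.00-fold toward PC3.

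CTNNA1, which encodes alpha-catenin, and STAT3 were near background in PC3 by every counted probe. As background, alpha-catenin ties cadherins to actin, and PC3 is known to lack it. DNA was not measured here, so the copy number behind these signals was not tested. The first 30 of the 60 bases of both brightest probes are printed to show where on the transcript the signal was read, with the probe's position on the hg18 build of the files; probes on the minus strand are so marked.
CTNNA1, chr5:138298286-138298345, plus strand: tgcttttttaggctacagtgtctcgatgcc
STAT3, chr17:37727930-37727989, minus strand: caacatgtcatttgctgaaatcatcatggg
CTNNA1 was at 4264 units in LNCaP and 12.3 in PC3, with bounds of −6.59 and −5.62. For STAT3 the bounds were −4.62 and −2.57, and the deposited table of processed values gave −1.14.

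Beta-catenin, CTNNB1, which binds alpha-catenin, was level at −0.07 on the log2 scale.

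In the PI3 kinase list of 19 counted genes, 7 were at least 2-fold higher in LNCaP and 5 in PC3 (median −0.78). TSC2, a brake on mTOR, gave 7043 and 772 units (10.8-fold higher in LNCaP), and the regulatory subunit PIK3R1 was at least 7.11-fold higher there. AKT1 was level (−0.13). PIK3CA was 3.36-fold and INPP4B 3.48-fold higher in PC3.

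Of 28 counted genes of growth arrest and of the stress response, 12 were at least 2-fold higher in LNCaP and 4 in PC3, with a median of −0.80 that stayed below 0 over the alternatives tried. CDKN1A, the cell cycle inhibitor p21, was at 1019 units in LNCaP and 354 in PC3, 3.39-fold higher in LNCaP. BTG2 (8.28-fold), SESN1 (7.63-fold) and BBC3 (5.41-fold), which regulate growth, oxidative stress and cell death, were higher in LNCaP. GADD45A (2.69-fold), PHLDA3 (2.18-fold) and EDA2R (at least 4.47-fold) were higher in PC3. BAX (−0.07) and FDXR (−0.19) were level.

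GSTP1, a glutathione transferase whose promoter is known to be methylated in most prostate cancers and in LNCaP, was read in PC3 only. Its 10 copies averaged 15.4 units in LNCaP, with a wide SD of 0.80 on the log2 scale, and 11107 in PC3, with an SD of 0.05, at least 344-fold apart. The 250 bases before its start are shown because of this known methylation, which was not measured here, with each CG in capitals (RefSeq, GRCh38.p14, plus strand, chr11:67583562-67583811).
GSTP1: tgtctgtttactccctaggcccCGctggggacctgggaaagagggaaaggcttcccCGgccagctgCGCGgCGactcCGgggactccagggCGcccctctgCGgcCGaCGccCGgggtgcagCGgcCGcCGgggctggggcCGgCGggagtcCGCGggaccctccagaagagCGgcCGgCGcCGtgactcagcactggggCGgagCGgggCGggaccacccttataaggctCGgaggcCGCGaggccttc
It holds 28 CG pairs, a number that 15.9% of the promoters in the table reach, against a median of 11. Other glutathione transferases were divided. GSTM2 (at least 13.6-fold) and GSTM4 (at least 9.87-fold) were seen in PC3 only, although this family too has near copies. GSTT2 was 12.2-fold and MGST2 3.33-fold higher in LNCaP. Over 17 counted genes the median was 0.00, with 5 higher in PC3 and 3 in LNCaP.

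Receptor kinases and their ligands were mostly higher in PC3. MET, the receptor for hepatocyte growth factor, gave 8.86 units in LNCaP and 8046 in PC3, at least 248-fold. The EGF receptor, EGFR, was above background in both lines at 98 and 539 units (4.63-fold), and its ligand AREG, or amphiregulin, at 12.8 and 15450.0 (at least 479-fold). VEGFC, a growth factor of lymph vessels, was at least 174-fold higher in PC3, and EPHA2, an ephrin receptor, at least 115-fold. In LNCaP, FGFR3 (at least 12-fold), IGF1R (3.41-fold) and ERBB3 (3.26-fold) were higher, and ERBB2 was within 2-fold (−0.52). The count was 14 in PC3 and 3 in LNCaP of 23, with a median of 2.21 that was 0.90 without the 11 genes that had bounds.

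Genes of the TGF beta and BMP family divided by role. Among ligands, INHBA, the activin A chain, was at 6.42 units in LNCaP and 4471 in PC3 (at least 138-fold), INHBB at 253 and 15512 (52-fold), TGFB1 differed by at least 32.9-fold and BMP4 by at least 41-fold, all higher in PC3, while GDF15 was 3.24-fold higher in LNCaP. The receptor TGFBR2 gave 19.4 and 4782 units (at least 148-fold). Follistatin, FST, which traps activin, was likewise read in PC3 only (at least 466-fold), as was NOG, which traps BMPs (at least 24.3-fold). Of the signal carriers, SMAD3 was 18.7-fold higher in PC3, and SMAD1, SMAD2 and SMAD4 stayed within 2-fold. The targets ID3 (3.75-fold), ID2 (2.18-fold) and SMAD7 (4.52-fold) were higher in LNCaP. Over the list, 14 of 26 were higher in PC3 and 4 in LNCaP (median 1.85). When only genes seen in both lines were kept, the median was −0.50.

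DKK1, a secreted inhibitor of WNT receptors, was among the largest bounds of the comparison, with 7.74 units in LNCaP and 80244 in PC3 (at least 2488-fold). The ligands WNT7A (at least 26.4-fold), WNT5A (at least 17.7-fold), WNT7B (9.5-fold) and WNT9A (at least 8.24-fold) were higher in PC3, whereas WNT10B was 2.48-fold higher in LNCaP. AXIN2, a common target of the pathway, was at 119.6 units in LNCaP and 32 in PC3 (at least 2.71-fold). WNT genes counted 12 of 16 in PC3 and 2 in LNCaP, a median of 2.20. The Notch list showed no such shift, with 3 of 13 in PC3 and 2 in LNCaP and a median of 0.00 whose sign turned with the scaling: JAG1 was 2.42-fold higher in PC3 and JAG2 2.9-fold in LNCaP, and the receptors NOTCH1, NOTCH2 and NOTCH3 lay within 2-fold.

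Genes of YAP and TEAD, a pathway that reads cell shape and contact, were for the most part higher in PC3. YAP1 gave 162 units in LNCaP and 427 in PC3 (2.24-fold), its relative WWTR1 238 and 1174 (4.18-fold), and the DNA-binding partners TEAD2 and TEAD1 were 10.5-fold and 3.18-fold higher in PC3, while TEAD3 (0.30) and TEAD4 (0.27) were within 2-fold on the log2 scale. Of the targets, CCN1 was at 637 and 12699 units (16.9-fold), CCN2 was seen in PC3 only (at least 13.4-fold), AMOTL2 differed by 8.05-fold and CDC42EP3 was level (−0.01). ARHGEF17 was the 1 gene of the list past 2-fold in LNCaP (2.4-fold), against 15 of 19 in PC3 (median 2.14).

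S100 proteins and annexins, small calcium-binding proteins and the membrane-binding proteins that some of them pair with, held several of the largest differences. S100A6 gave 5.67 units in LNCaP and 143676 in PC3, at least 4455-fold, the largest bound among named genes. ANXA2 was at 11.1 and 49327 units (at least 1529-fold), and its partner S100A10 at 105 and 25988 (210.2-fold). ANXA2 has pseudogenes of near-identical sequence, which may share its signal. S100A2, ANXA1 and ANXA3 differed by 617-fold, 235-fold and at least 233-fold. Other members were bright in both lines, such as S100A11 (19952 and 58743 units, 2.5-fold higher in PC3) and ANXA5, within 2-fold (0.81). ANXA9 alone was at least 2-fold higher in LNCaP (at least 4.69-fold), against 18 of 22 in PC3 and a median of 3.35. Metallothioneins, which bind zinc and share much sequence, were closer, with 5 of 11 higher in PC3 (median 0.71). MT1G stood against the rest with 2970.3 units in LNCaP and 11.4 in PC3 (at least 67.2-fold).

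Cancer testis antigens, germ line proteins that some tumours express, were read mainly in LNCaP. MAGEA12 was at 13835 units in LNCaP and 36.6 in PC3 (at least 313-fold), MAGEA6 at 9875 and 82.2 (142-fold), and MAGEA4 at 2070.2 and 10.5 (at least 46.8-fold). GAGE7 and CSAG1, of the same kind, gave bounds of at least 943-fold and at least 269-fold. Of 11 counted genes, 10 were at least 2-fold higher in LNCaP and none in PC3 (median −2.09), with the remaining 1, MAGEC1, having no bound. Of the 11, 9 had passed the filter through LNCaP alone, which set their direction, and 11 of the 22 on the array were not counted. The MAGEA, GAGE and CSAG families are near copies of each other, so neither the count of genes nor the identity of a single member is certain. Neuroendocrine markers gave little: 4 of 21 were counted, of which 1 was at least 2-fold higher in PC3 and 2 in LNCaP. CHGA and SYP were not above background in either line, and DDC, the aromatic amino acid decarboxylase, was at 2213 units in LNCaP and 12.6 in PC3 (at least 50.1-fold). The tubulin TUBB3 went the other way, at 339 and 2790.3 units (6.98-fold), UCHL1 was 2.41-fold higher in LNCaP and ENO2 was within 2-fold (0.30).

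Further genes with the largest differences belonged to no list. Toward LNCaP, measured in both lines, were EFS, a docking protein of the CAS family (4774 and 79.1 units, 71.2-fold), ARG2, mitochondrial arginase (5749 and 100.1, 67.7-fold), and MAOA, monoamine oxidase A (6937 and 135, 60.8-fold). SEPP1, selenoprotein P, differed by 43.4-fold and its second probe by −5.31 on the log2 scale. TMSB15A, PASK, RIMS1 and RAB26 followed with 42-fold, 35.7-fold, 33-fold and 29.6-fold. Seen in LNCaP only were SPON2, a secreted matrix protein (44778 units in LNCaP and 19.6 in PC3, at least 1013-fold), and the adhesion protein NCAM2 (at least 176-fold, and 4.09 lower in PC3 on the log2 scale by its second probe, also a bound).

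Toward PC3 the largest measured difference was that of LGALS1, galectin-1, at 68.4 units in LNCaP and 56567 in PC3 (701-fold). SFN, the epithelial 14-3-3 protein, was at 139 and 36380.3 units (221-fold), the trefoil peptide TFF1 at 207 and 35783 (147-fold), and FXYD5, a regulator of the sodium pump, at 40.6 and 8815 (184-fold). CTSC, cathepsin C, differed by 171-fold on its brightest probe and by 8.91 on the log2 scale on the next. Read in PC3 only were PI3, the elastase inhibitor elafin (at least 2190.2-fold), MSMP (at least 894-fold), LCN2, an iron-carrier-binding lipocalin (at least 645-fold), and FABP5, a fatty acid binding protein (at least 575-fold). PI3 gave 8.95 units in LNCaP and 70638 in PC3.

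Families of transcription factors differed by member. Of the ETS factors, ETS1 (9.78 and 1639 units, at least 50.8-fold) and ETV4 (7.87 and 1668, at least 51.7-fold) were seen in PC3 only, while ETV1 was at 1222 and 323 units, 4.45-fold higher in LNCaP. ERG was not above background in either line. The ETS count was 7 of 16 in PC3 and 3 in LNCaP (median 0.90). Of the homeobox genes of the HOX clusters, 12 of 21 counted were at least 2-fold higher in PC3 and 3 in LNCaP (median 1.76, or 0.47 over genes seen in both lines), with no HOXD gene counted. HOXA9 gave 28.9 units in LNCaP and 3792 in PC3 (at least 111-fold), HOXA13 differed by at least 17.5-fold, and HOXA10 was level (0.02). The 3 higher in LNCaP were HOXB13, HOXC9 (3.3-fold) and HOXC6 (2.35-fold). Small GTPases that arrange the actin skeleton also split, 7 of 18 in PC3 and 4 in LNCaP (median 0.53). RAC2 was at 46.9 and 7756 units (140.2-fold higher in PC3), RND3 was seen in PC3 only (at least 120.4-fold) and RHOU in LNCaP only (at least 30.6-fold), while RHOA (0.41) and RAC1 (0.65) were within 2-fold.

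Genes of proliferation differed little between the lines. Of 43 counted DNA replication genes, 1 was at least 2-fold higher in PC3 and 4 in LNCaP (median −0.24), and of 26 mitosis genes 3 and 0 (median 0.07). The helicase subunit MCM7 gave 15258 and 12838 units, the sliding clamp PCNA 8524 and 10317, cyclin B1, CCNB1, 11313 and 8973, and the kinase PLK1 3403 and 3189, all within 2-fold. Regulators of the first growth phase differed more in single cases: CDK6 was seen in PC3 only (at least 38-fold), CCND1 was 3.31-fold higher in PC3, and the inhibitor CDKN1B, p27, 2.55-fold higher in LNCaP. Of 24 counted genes 4 were higher in PC3 and 3 in LNCaP, with a median of 0.17. Proteasome subunits had 0 of 31 at least 2-fold apart in either direction (median −0.10). The medians for replication, mitosis, cell cycle and proteasome genes each changed sign under at least 1 scaling.

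Pathways that bear on a statin were compared because the untreated state is its baseline. Of 27 counted genes of cholesterol synthesis and its control, 10 were at least 2-fold higher in LNCaP and 0 in PC3, with a median of −0.47 that turned to 0.03 with the spike-in scaling. SREBF1 (6086 and 1325 units, 5.41-fold) and SREBF2 (1695 and 427, 4.68-fold), the factors that induce the pathway, were higher in LNCaP, as were FDFT1 (5.66-fold) and TM7SF2 (9.14-fold), enzymes of its later steps. The enzymes HMGCS1 (−0.83) and SQLE (0.72) stayed within 2-fold on the log2 scale. Autophagy genes were near level with 2 of 32 in PC3 and 5 in LNCaP (median −0.06, of either sign over the scalings). Among them GABARAP, which coats autophagosomes, gave 22148 and 8505 units (3.07-fold higher in LNCaP), MAP1LC3B differed by 0.50 and ATG16L1 was 3.74-fold higher in PC3.

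Genes of cell death were apart no more often than all counted genes. Of 26 counted BCL2 family and caspase genes, 16 were within 2-fold and 5 were higher in each line (median 0.25, −0.23 under the 50th percentile), among them BMF (at least 8.75-fold higher in LNCaP) and CASP10 (4.93-fold higher in PC3), and BCL2 was not above background in either. Cytosolic ribosomal protein genes were shifted toward LNCaP by a small amount, with 19 of 76 at least 2-fold higher there, 0 in PC3 and a median of −0.61, negative under every scaling tried (−1.10 to −0.11). Most of these probes were bright, with RPL27A the dimmest at 463 and 229.9 units, and whether their response is linear at such signals was not tested.

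A gene read in 1 line only entered these counts through that line, so its direction was set by the filter, and a list with many such genes is read with that in view. Over the genes well above background in both lines alone, the median was −1.84 for the androgen response, 2.45 for mesenchymal genes, 1.06 for integrins, 2.92 for matrix proteases and inhibitors, 1.65 for WNT genes, 1.91 for YAP and TEAD genes, 2.28 for S100 proteins and annexins, 1.67 for interferon-stimulated genes and 0.40 for ETS factors. These kept the sign of the median over all counted members.

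**Figure D3:**
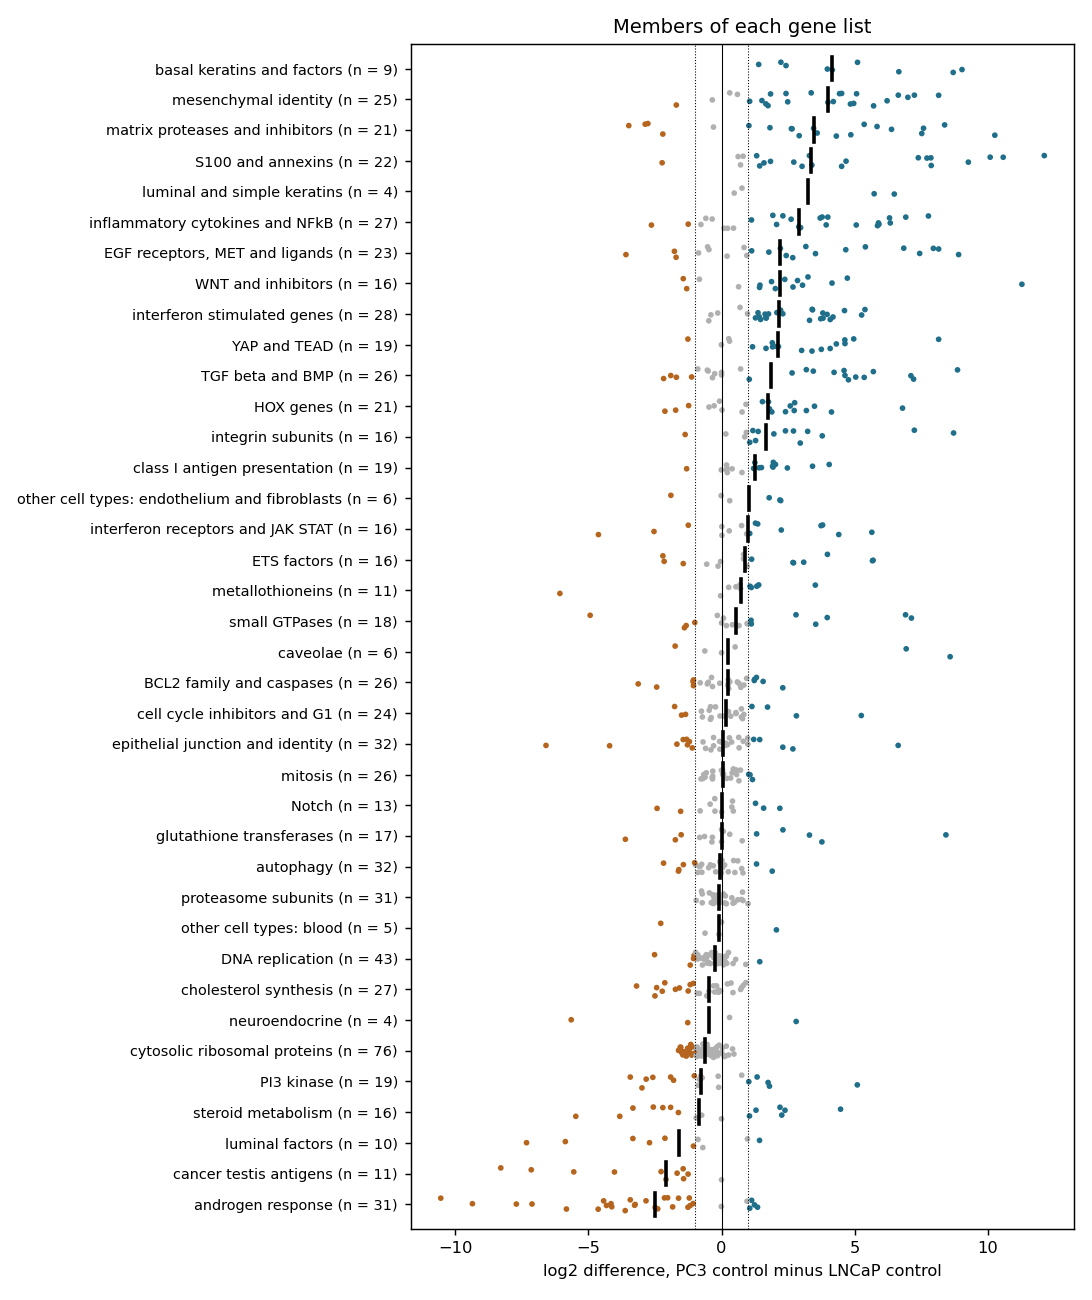
Log2 difference (PC3 control minus LNCaP control) of each counted member of 38 of the 40 gene lists, 1 point a gene, with the median as a black bar and dotted lines at 2-fold. Medians run from −2.49 for the androgen response to 4.16 for basal keratins and factors, and the medians of the proliferation and proteasome lists lie within the dotted lines around 0.

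Markers of other cell types were checked beside these differences. Of 12 blood markers 10 were on the array and 5 were counted, and CD3E, CD3D, CD14 and ITGAM were at background in both lines; PTPRC gave 215 units in LNCaP and 10.9 in PC3. The summed signal of the blood markers on the array was 594 units in LNCaP and 985 in PC3, most of the latter from CD68 (829 units), a lysosomal protein that many cells make. Of 13 markers of endothelium and fibroblasts 6 were counted, with sums over the list of 393 and 753 units, and KDR, TEK, PDGFRA, PDGFRB, COL3A1, DCN and LUM were at background in both lines. Their part in the differences above was not tested.

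Some genes that were read in 1 line only lay side by side. In genome order, 28 runs of at least 4 neighbouring counted genes were above background in the same single line, 15 runs with 71 genes in LNCaP and 13 with 58 in PC3, or 3.78% of the 3417 placed genes read in 1 line only. How many runs a random order would give was not tested. Every gene of the PC3 runs had a bound of at least 2-fold, but many genes of the LNCaP runs did not. A LNCaP run on chromosome 4 had 1 such gene of 6, and another on chromosome 5 had 0 of 4. The floor was higher in PC3, so a dim gene could be read in LNCaP only without a large difference. The kallikrein run on chromosome 19 held KLK15, KLK3, KLK2, KLKP1 and KLK4 and ended at KLK5, which was 3.58-fold higher in PC3. On chromosome 17 a run in LNCaP held DHX58, KAT2A, RAB5C, GHDC, STAT5B and STAT3. KAT2A, a histone acetyltransferase, gave 5492 units in LNCaP and 10.4 in PC3 (at least 124-fold), RAB5C 1720.0 and 11.3 (at least 38.9-fold), and just past the run ATP6V0A1 1307 and 10.9 (at least 29.6-fold), while PTRF (now CAVIN1), which lies between STAT3 and ATP6V0A1, was well above background in both lines. In PC3, runs held PGLYRP4, S100A9, S100A8, S100A6 and S100A5 on chromosome 1, the serpins SERPINB4, SERPINB3, SERPINB7, SERPINB2 and SERPINB8 on chromosome 18, and KRT75, KRT6B, KRT6C and KRT6A on chromosome 12. Families of near copies make up several runs, so their length in genes is not certain.

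Next to CTNNA1, SIL1 was also at background in PC3 (362 units in LNCaP and 10.5 in PC3), and the genes on either side, MATR3 (0.04) and HSPA9 (0.24), were level on the log2 scale. Farther out, KDM3B (−0.97), PAIP2 (−0.87) and ETF1 (−0.65) were lower in PC3 within 2-fold, and REEP2 was at least 5.1-fold higher in PC3. Around CAV1, both CAV2 and MET were seen in PC3 only, with MDFIC (at least 10.2-fold), and the next gene, CAPZA2, was level (0.09).

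**Figure D4:**
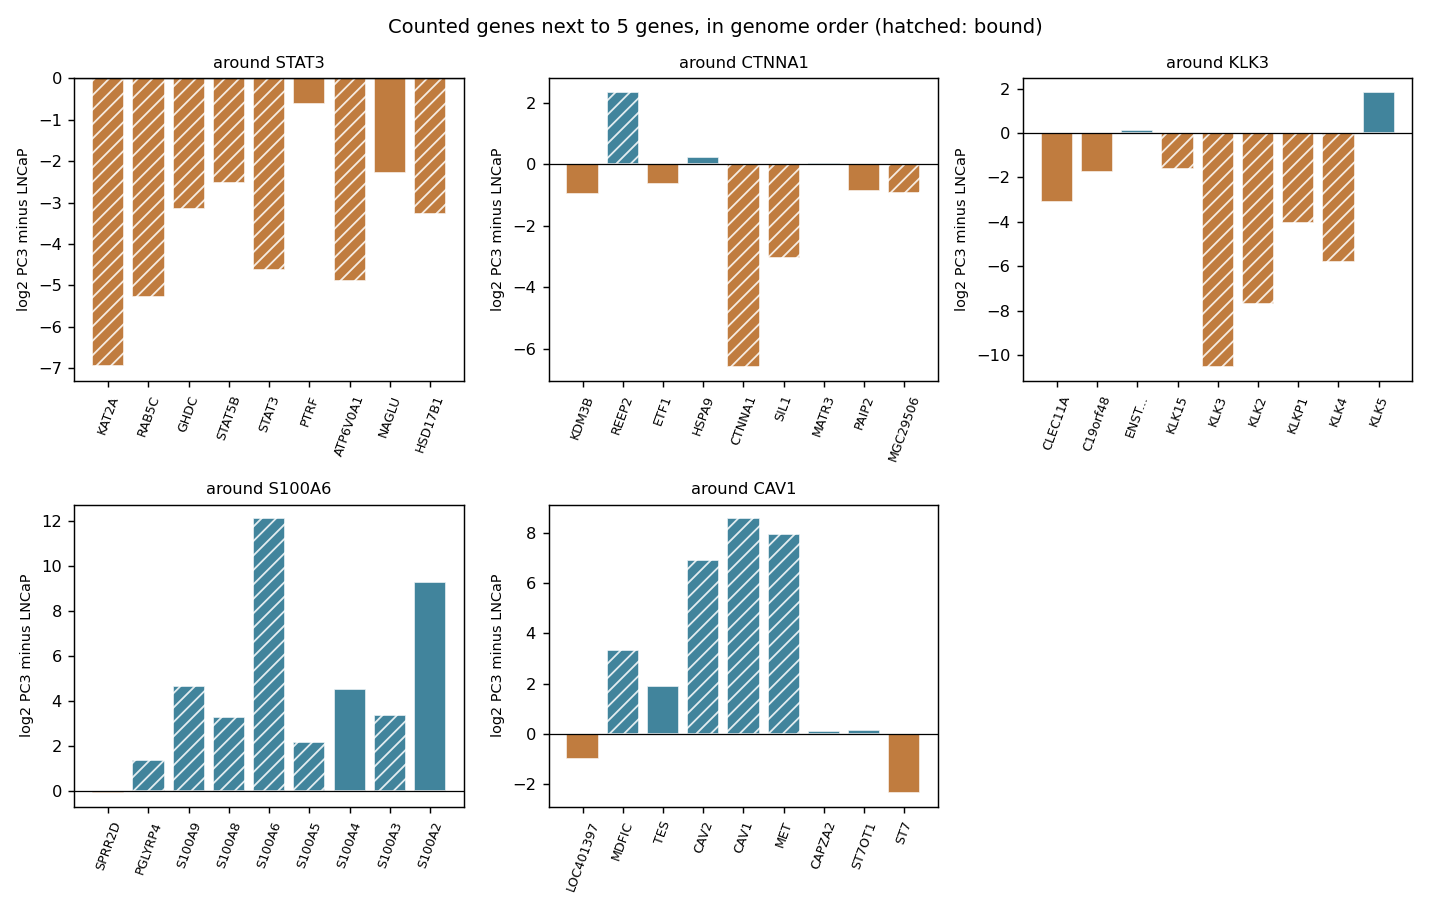
Log2 difference (PC3 control minus LNCaP control) of the counted genes next to STAT3, CTNNA1, KLK3, S100A6 and CAV1 in genome order, hatched where the value is a bound. Around STAT3, KLK3, S100A6 and CAV1 several neighbours share the direction, while around CTNNA1 only SIL1 is more than 2-fold lower in PC3 beside it.

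In windows of 25 neighbouring counted genes, of which there were 14611, the lowest 1% had a median below −1.09 and the highest 1% above 1.25. The lowest separate windows lay at chr17:37429725-38204013 (hg18; median −1.60, the STAT3 region), chr5:68541405-71684290 (−1.56) and chr6:26139901-26381413 (−1.37). In each of the 3, 19 of 25 genes were at least 2-fold higher in LNCaP. The chromosome 5 window held MCCC2, a mitochondrial carboxylase subunit, at 5604 and 452 units (14.6-fold), beside near copies such as SMN1 and SMN2 that can share signal. The chromosome 6 window is a histone gene cluster, in which HIST1H1C was at 38872 and 10324 units (4.44-fold) and HIST1H4C was within 2-fold (−0.48). The highest windows lay at chr4:70742324-75894921 (2.17), with the CXCL chemokines and AREG, chr1:204730783-208916023 (2.00), with LAMB3, CD55 and G0S2, and chr7:26673249-29926407 (1.80), with the HOXA cluster. Of the 25 genes in each, 14, 18 and 17 were at least 2-fold higher in PC3, and 3, 0 and 0 in LNCaP. Many of those higher in PC3, such as CXCL1, AREG, LAMB3, CD55 and G0S2, were read in PC3 only. Their direction was set by the filter, as was that of KAT2A and STAT3 in the chromosome 17 window. CD55, which protects cells from complement, gave 11.5 and 1998 units (at least 61.9-fold), and G0S2, an inhibitor of fat breakdown, 6.34 and 10351 (at least 321-fold).

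Whole chromosomes differed as well. On chromosome 22, 38% of 400 counted genes were at least 2-fold higher in LNCaP and 9.25% in PC3, with a median of −0.72. Chromosomes 9 (−0.56) and 16 (−0.55) followed, against −0.04 over all genes. In the other direction stood chromosome 21, with a median of 0.59 over 173 genes and 34.7% of them higher in PC3, and chromosome 20, with a median of 0.30 and 26.5% higher in PC3 against 7.3% in LNCaP. On chromosome 13, 29.6% of 250 genes were higher in PC3 and 7.6% in LNCaP. Both lines are aneuploid as background, and DNA was not measured, so copy number was not tested.

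**Figure D5:**
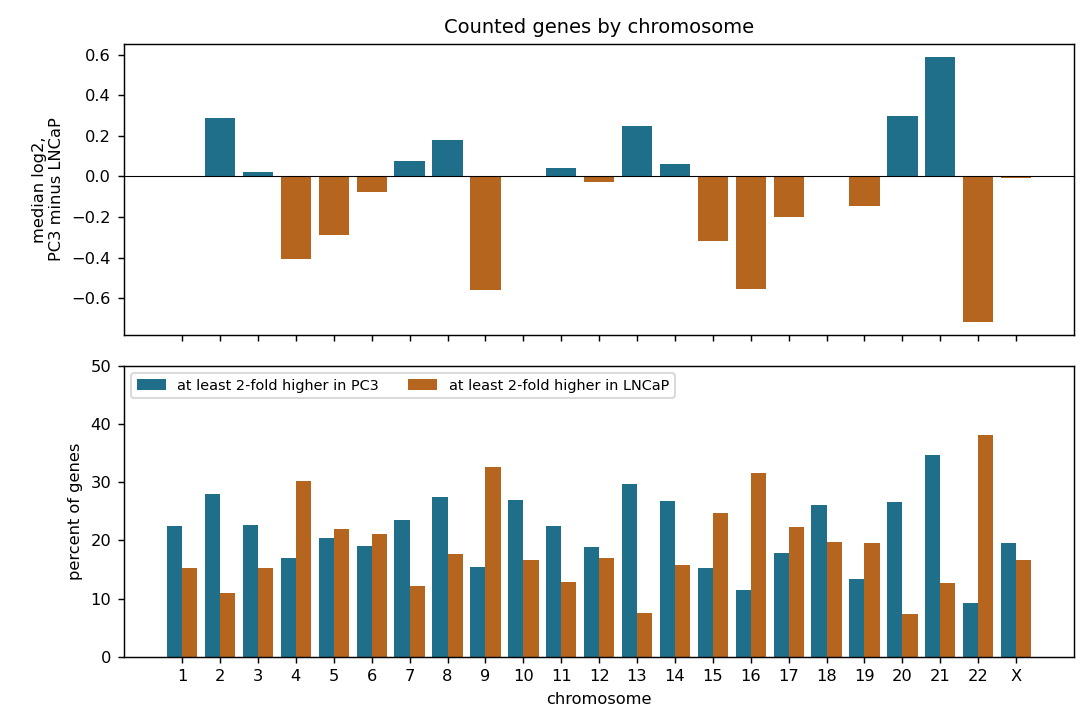
Median log2 difference (PC3 control minus LNCaP control) of the counted genes of each chromosome (upper panel) and the percent of them at least 2-fold higher in either line (lower panel). Chromosome 22 has the lowest median (−0.72) and chromosome 21 the highest (0.59).

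Where a gene had further probes, they gave a technical check of single differences. For 2343 genes with at least 2 probes measured in both lines, the log2 differences of the brightest probe and the next had a Pearson correlation of 0.81 and a Spearman correlation of 0.79 across genes, which are not independent replicates, and both probes shared the RNA and the array. The median absolute gap between them was 0.26, and 10.5% of the genes had probes more than 2-fold apart. Of 674 genes whose brightest probe was at least 2-fold apart, the next probe had the same direction in 635 (94.2%) and was also at least 2-fold apart in 485. At 4-fold the direction was shared in 150 of 151 (99.3%).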

How the data were processed

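Total RNA of untreated LNCaP and PC3 cells was labelled and hybridised to 1-colour Agilent arrays, 1 array a line. The authors read the slide with Agilent Feature Extraction 9.5.3.1, whose deposited output gives a linear intensity for each spot, already corrected for background, and per the file headers the positions are those of hg18. The authors' deposited value table gives 1 ratio per probe, a constant multiple of the scaled intensity within 2% for 100% of LNCaP and 99.7% of PC3 values above 1. How controls were handled beyond the labels is not given in the sources used here.

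Outlier spots were dropped, the log2 intensity was averaged per probe, and each array was scaled by its 75th percentile over gene spots. Well above background means that over 50% of a probe's spots carried that call. A gene was represented by its brightest probe, and names are those of the array's design. A probe dim in 1 line was set at the higher of its own value and the lowest value well above background on that array, and where this gave less than 1-fold the log2 difference was set to 0. Named were the 5 markers of the lines, the 10 genes with the largest measured differences and the 10 with the largest bounds in each direction, members of the lists, and genes of the 3 highest and lowest windows and of the runs. Clone names were not printed, and some genes that this rule names are not reported here. Of 1011 entries in 40 gene lists, 997 were on the array, 24 of them under an older symbol. The members of the comparison and the lists were chosen with earlier results of these data known. Scripts were tested on simulated data. Python 3.11.15 (numpy 2.4.6, pandas 2.3.3), R 4.3.3 and limma 3.58.1 (normexp with an offset of 50 and cyclic loess, as alternatives) were used. Promoters are from RefSeq, GRCh38.p14, a table that does not hold every gene.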

Additional observations from a re-analysis of the deposited data

How the results depend on the processing

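Under 13 alternatives in scaling, background, filter and choice of probe, 1 of them chosen after seeing the data (1 common lowest value for both arrays), none of the 230 named genes at least 2-fold apart changed sign, and 194 stayed at least 2-fold apart under each alternative that gave a value. Of 19 lists with a median of at least 1 in size, 18 kept their sign. TGF beta and BMP did not, with −0.50 over genes well above background on both arrays, which leaves out every bound. Of all 40 lists, 28 had no change from 1 sign to the other under the 7 scalings. These 28 include the glutathione transferases, whose median of 0 had no sign to keep and ran from −0.35 to 0.16. They also include the blood markers, whose median of −0.10 reached 0 under some scalings. A probe read in 1 line only could not change sign under a scaling, because its bound was cut off at 0. The direction of such genes, and of lists made up mostly of them, was therefore not tested by the scalings. Genes higher in LNCaP numbered 4966 when scaled by the 50th percentile and 1515 when scaled by spike-in probes. Keeping genes well above background on both arrays left 3763 genes at least 2-fold apart, 1589 of them higher in PC3. With a threshold of 1.5-fold, 4600 were higher in LNCaP. At 4-fold there were 2448, with 1579 in PC3 and 869 in LNCaP. With 1 common lowest value, 2731 were higher in PC3 and 2899 in LNCaP. The deposited table gave 3038 and 2959. With no filter on dim probes, 8433 of 27258 genes were at least 2-fold apart. By position on the array, 37.7% of the genes in its upper rows and 41.6% in its lower rows were at least 2-fold apart. No paired analysis was possible because each group has 1 array, and for the same reason no array could be left out. Differences in dim genes are limited by signal over background, and culture-to-culture error was not measured.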
